A study of Mus musculus with 6 samples.

Results

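The circadian clock genes described here are 10 genes of the core oscillator: Per1, Per2, Per3, Cry1, Cry2, Arntl (also written Bmal1), Clock, Npas2, Nr1d1 and Dbp. They were taken by name from tables of 55414 genes, all 10 were found, and all 10 were among the 13115 genes that passed the filter on low counts. The list was drawn up with results of these libraries known, so its genes count as selected on the knockout against control fold changes of these same libraries. The differences between the groups below are therefore descriptions of these libraries, and none of them is independent support for a change.

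Gene expression was measured by RNA sequencing of polyadenylated RNA in 6 libraries from untreated acinar cells of adult mice, which make up most of the exocrine pancreas and secrete its digestive enzymes. Of these, 3 control libraries had the genotype Pdx1Cre;Trip12+/+ and 3 knockout libraries had the genotype Pdx1Cre;Trip12fl/fl, in which Trip12, the gene of an E3 ubiquitin ligase, is flanked by loxP sites. Both groups thus carried Cre recombinase driven by Pdx1, a promoter active in the progenitors of the whole pancreatic epithelium, so that ducts and islets are also exposed to Cre. The labels name biological replicates 1 to 3 in each group. They do not say whether each came from 1 animal or whether equal numbers pair the groups. They give neither the sex of the animals nor an hour of collection.

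The mammalian clock is a transcriptional feedback loop. CLOCK or its paralog NPAS2 pairs with ARNTL and activates genes with E-box sequences, among them the Per and Cry genes, whose proteins return to the nucleus and repress CLOCK and ARNTL. A second loop runs through Nr1d1, the gene of the repressor REV-ERB alpha, which is activated through E-boxes and represses Arntl through ROR elements, and Dbp is an output gene whose protein activates D-box genes. In tissues of living mice, Arntl and Npas2 peak at about the opposite time of day from Nr1d1, Dbp and the Per genes, and the exocrine pancreas has a clock of this kind.

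Promoter sequences of the members were searched first, because clock factors are known to act through these motifs. RefSeq windows on mouse build GRCm38.p6, from 250 bases before to 50 bases after each annotated start, were matched for 9 of the 10 members, all but Per2. The 5 kinds of motif were the E-box CACGTG, the E'-box CACGTT, the D-box TTATGTAA or TTACGTAA, the ROR element TAGGTCA or TGGGTCA, and the cAMP response element TGACGTCA, each on both strands, and none of them contains another. The windows below are the 5 with a match before the start. Each ends at or just short of the annotated start, bases in annotated exons were left out, and capitals mark the motifs (AACGTG is the E'-box read on the other strand):
Per1, chr11:69098699-69098947, plus strand: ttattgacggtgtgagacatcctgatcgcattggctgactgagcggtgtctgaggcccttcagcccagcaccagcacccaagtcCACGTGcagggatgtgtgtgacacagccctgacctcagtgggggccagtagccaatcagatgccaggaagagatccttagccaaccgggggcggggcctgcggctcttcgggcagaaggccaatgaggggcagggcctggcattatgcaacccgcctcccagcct
Per3, chr4:151044666-151044915, minus strand: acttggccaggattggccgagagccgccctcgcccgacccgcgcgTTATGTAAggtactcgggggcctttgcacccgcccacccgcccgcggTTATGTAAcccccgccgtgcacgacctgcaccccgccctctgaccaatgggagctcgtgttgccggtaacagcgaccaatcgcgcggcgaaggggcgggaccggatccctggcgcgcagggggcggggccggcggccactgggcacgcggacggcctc
Cry1, chr10:85185065-85185304, minus strand: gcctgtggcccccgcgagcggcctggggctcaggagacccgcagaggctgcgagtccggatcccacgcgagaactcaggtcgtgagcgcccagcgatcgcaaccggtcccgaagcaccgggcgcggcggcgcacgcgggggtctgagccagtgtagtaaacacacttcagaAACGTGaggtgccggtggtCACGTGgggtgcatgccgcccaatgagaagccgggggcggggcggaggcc
Cry2, chr2:92434070-92434319, minus strand: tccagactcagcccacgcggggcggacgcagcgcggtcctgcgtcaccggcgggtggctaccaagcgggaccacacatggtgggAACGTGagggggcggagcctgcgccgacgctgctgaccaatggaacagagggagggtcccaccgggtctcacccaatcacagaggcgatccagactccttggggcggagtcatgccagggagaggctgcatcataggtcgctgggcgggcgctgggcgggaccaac
Nr1d1, chr11:98775378-98775627, minus strand: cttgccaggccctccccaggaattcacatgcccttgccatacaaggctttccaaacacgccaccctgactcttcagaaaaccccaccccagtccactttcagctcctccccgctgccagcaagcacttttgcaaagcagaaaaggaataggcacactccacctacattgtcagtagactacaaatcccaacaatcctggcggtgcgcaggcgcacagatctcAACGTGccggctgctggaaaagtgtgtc

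An E-box was found in Per1 (from base 166 before the start) and in Cry1 (from base 60), which is 2 of 9 members, and in 8.09% of all 27025 genes with a window. Cry1 held an E'-box as well, from base 79 before the start, as did Cry2 (base 166) and Nr1d1 (base 28). The E'-box was present in 5.44% of all genes. Per3 held a pair of D-boxes, from bases 205 and 158 before the start, a motif found in 1.23% of all genes. For Arntl the match to a ROR element, a motif in 7.35% of all genes, lay 31 bases after its second annotated start, in this stretch of 30 bases.
Arntl, chr7:113207530-113207559, plus strand: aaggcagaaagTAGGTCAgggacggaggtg

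No member window held the full cAMP response element, which occurred in 2.03% of genes. Clock, Npas2 and Dbp had no match, which says only that these letters are not in windows of this length. The other core loop genes held an E-box in 4 of 11 matched genes (Bhlhe41, Ciart, Tef and Cipc), with 3 E-boxes in Ciart.

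**Figure D1:**
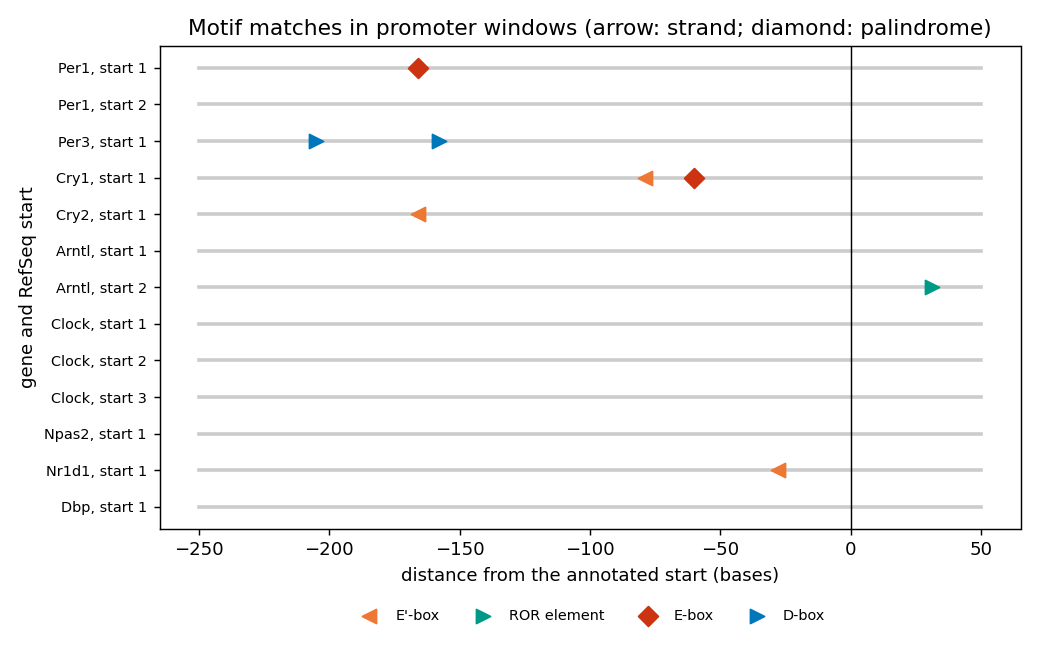
Motif matches in the promoter windows of 9 clock genes, by RefSeq start. The x axis is the distance from the annotated start in bases, each grey line is 1 window, arrows give the strand and diamonds mark the E-box, which reads the same on both strands. Per3 holds both D-boxes, Cry1 holds an E-box and an E'-box, and the ROR element of Arntl lies after its start.

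The libraries were of like depth, with 31019500 to 34041901 gene counts in control and 31318935 to 32163072 in knockout. Scaled with TMM factors, the effective library sizes differed without overlap, at 24343678 to 31747860 in control and 35030038 to 37308127 in knockout. The p-values set the difference between the groups, whatever separates them, against the spread between the libraries of a group. Trip12 itself had 29.0, 22.3 and 26.4 CPM (counts per 1000000 reads of a library, scaled with TMM factors) in the controls against 14.4, 14.7 and 13.0 CPM in the knockouts, in the order of replicates 1 to 3 (log2 fold change -0.89, SE 0.14, adjusted p 0.0256). With library totals the log2 fold change of Trip12 was -0.49 (adjusted p 0.125 in edgeR). With the Xist covariate, a fit that sets the knockouts against 1 control library, it was -1.05. Its call held without control replicate 1 and was lost in the other 5 fits that dropped a library, with values from -0.98 to -0.82 over all 6. Counts over the whole gene do not show which exons are missing. The acinar marker list summed to between 349713 and 466967 CPM in control and between 314005 and 326278 CPM in knockout. Its 9 genes had a median log2 fold change of -0.42 (0.02 with library totals), and none was called in edgeR. Of these only 1, Rbpjl, had a log2 fold change above 0, at 1.24 (SE 0.26). Rbpjl had 183, 280 and 180 CPM in the controls against 486, 658 and 370 CPM in the knockouts. Of the 3 adipocyte markers Adipoq and Plin1 had at most 1 count in any library. The other adipocyte marker, Fabp4, had 8.85, 3.37 and 3.49 CPM in the controls against 17.2, 4.57 and 5.66 CPM in the knockouts (log2 fold change 0.79, adjusted p 0.649, and 0.0293 with the replicate block in edgeR). The 6 leukocyte markers summed to 4.80 to 43.6 CPM in control and 5.11 to 25.7 CPM in knockout, highest in replicate 1 of both groups. Single markers went both ways. Ptprc and Cd79a had log2 fold changes of -1.09 and -0.98, and Cd68, Adgre1 and C1qa of 1.14, 2.15 and 1.16. The latter genes were highest in knockout replicate 3. None was called in edgeR, where the adjusted p of Adgre1 and C1qa was 0.0336 and 0.0327 with the replicate block. Xist, a transcript of female cells, had 2118 counts in control replicate 2 and 2440 in control replicate 3, against 3 to 5 in each of the other 4 libraries. Reads outside genes made up 1.49% to 2.15% of uniquely mapped reads in control and 2.85% to 3.39% in knockout. For each of these measures its part in the clock gene differences was not tested. A fit with Xist as a covariate is given below and rests on 1 control library. In bulk RNA, fewer cells of a type and less RNA per cell cannot be told apart.

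The main pattern was of higher levels in the knockout libraries for some members, the activator Arntl among them, but not for Clock or Nr1d1. For Per2, Per3, Cry1, Cry2 and Arntl every knockout library lay above every control library, which is 5 of 10 members. Over all 13115 genes tested, 12.0% were higher without overlap and 10.9% lower without overlap. The median log2 fold change of the 10 members was 0.65, against 0.02 over all genes, and 9 of 10 were above 0, against 52.4% of all genes. Scaled by library totals in place of TMM factors, these medians were 1.06 for the members and 0.43 for all genes. In the fit over all genes (edgeR's quasi-likelihood test, Benjamini-Hochberg adjustment, called at an adjusted p under 0.05), 1 member was called, Per2, where 0.945% of all genes were called, 0.465% were called higher and 0.48% lower. Since the members were listed with this contrast known, nothing is read from these shares.

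**Figure D2:**
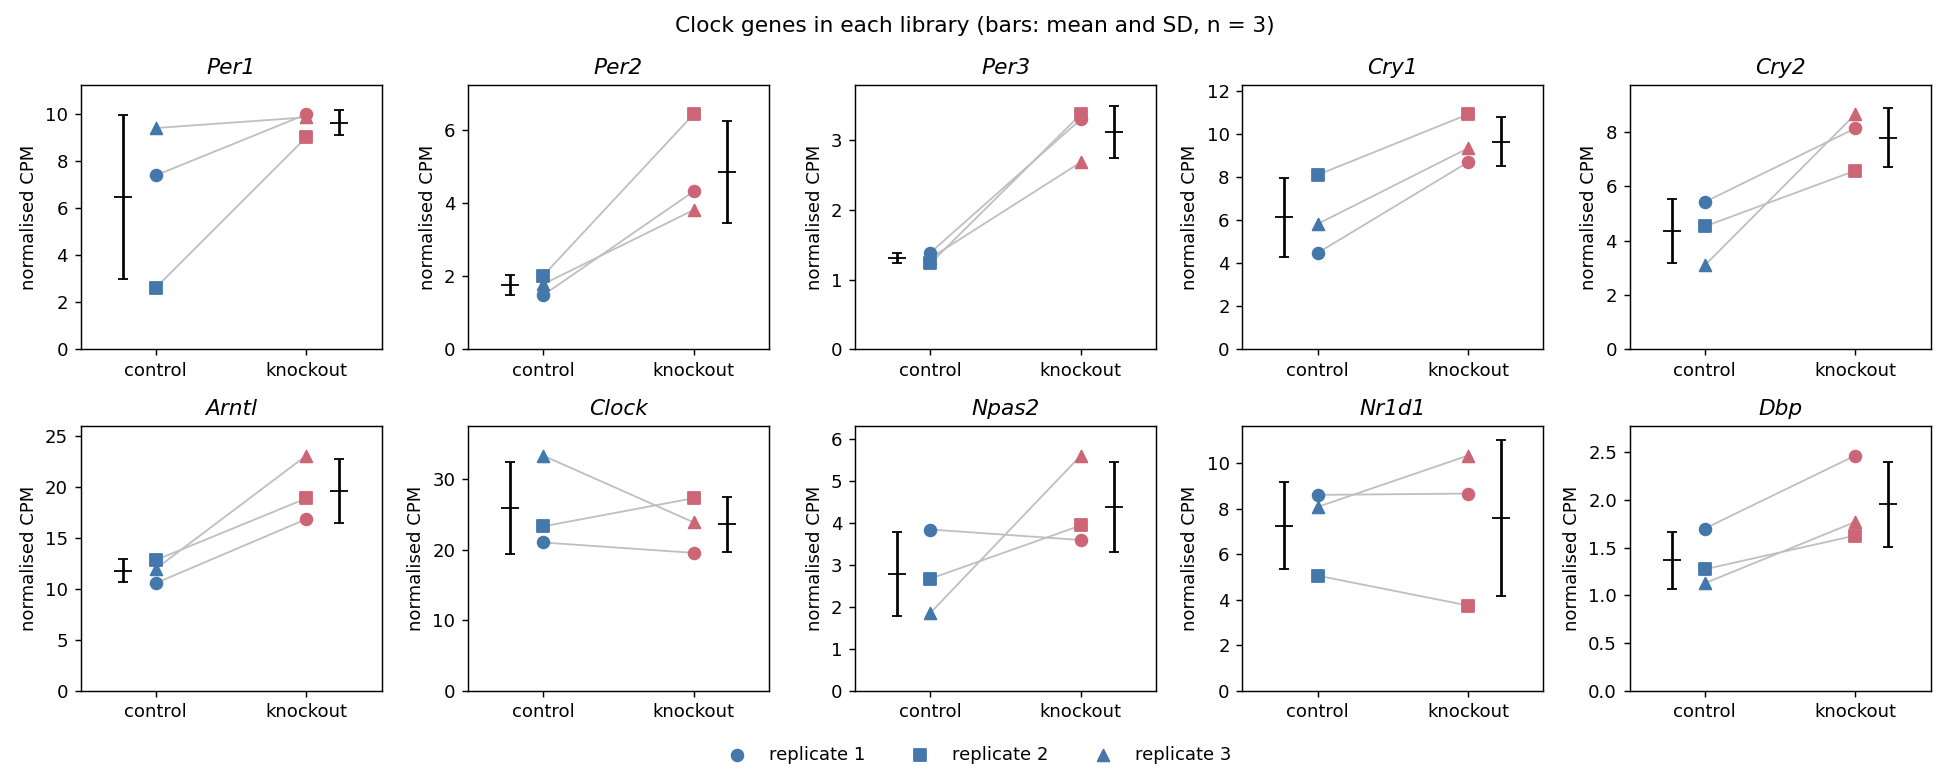
Normalised CPM of the 10 clock genes in each library. Points are libraries, with the marker giving the replicate number and grey lines joining equal numbers, and black bars are the mean and SD of 3 libraries. In Per2, Per3, Cry1, Cry2 and Arntl all knockout points lie above all control points, and in the other 5 genes the groups overlap.

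The Period genes encode the repressors whose build-up sets the timing of the loop. Per2 (ENSMUSG00000055866) gave 47, 49 and 49 counts in the controls against 161, 225 and 142 in the knockouts. In normalised terms this was 1.48, 2.01 and 1.78 CPM in the controls against 4.32, 6.42 and 3.81 CPM in the knockouts. The lowest knockout value stood well above the highest control value, and knockout replicate 2 was highest of all. The mean was 1.76 CPM ± 0.267 (SD, n = 3) in the controls and 4.85 CPM ± 1.39 in the knockouts, giving a log2 fold change of 1.46 (SE 0.26; adjusted p 0.0432). The call was lost whenever a single library was dropped other than control replicate 1 (5 of 6 such fits), and the log2 fold change then ran from 1.20 to 1.61 over all 6. With reverse-strand counts the adjusted p of Per2 was 0.0795 in edgeR, and Arntl was the 1 member called. In control the spread of Per2 between libraries (a coefficient of variation of 15.2%) was close to the 14.4% that counting alone gives at this depth. Per2 lies within 10 Mb of Trip12 on chromosome 1 in the GRCm38 annotation, and Npas2 is on the same chromosome but farther away.

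Per3 (ENSMUSG00000028957), a paralog with a smaller part in setting the rhythm, showed nearly the same separation at a lower level. It had 1.39, 1.23 and 1.31 CPM in the controls, from 30 to 44 counts, against 3.30, 3.37 and 2.68 CPM in the knockouts. All 3 controls were within a narrow band and all 3 knockouts lay above it. The band was narrower than counting alone gives, with a coefficient of variation of 5.87% against 16.5%. The log2 fold change was 1.25 (SE 0.25). The adjusted p of 0.0587 missed the threshold, and with the replicate number as a block in the edgeR fit it was 0.0177. Per3 was also the member whose pattern was closest to that of Per2, with a Pearson correlation of log2 CPM of 0.95 across the 6 libraries, a value the group difference shapes.

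Per1 (ENSMUSG00000020893), which responds within minutes to cAMP and glucocorticoid signals, did not follow the other Period genes. Its control values were 7.40, 2.63 and 9.41 CPM and its knockout values 10.0, 9.02 and 9.87 CPM. The groups overlapped because control replicate 3 lay inside the knockout range, and control replicate 2 was far below every other library. The controls spanned 3.58-fold and the knockouts 1.11-fold. The log2 fold change was 0.57 (SE 0.42, adjusted p 0.564), and without control replicate 2 it was 0.19.

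The cryptochromes form the repressor complex with the Period proteins. Cry1 (ENSMUSG00000020038) had 4.47, 8.09 and 5.82 CPM in the controls against 8.68, 10.9 and 9.33 CPM in the knockouts. Control replicate 2 came close to the lowest knockout value without reaching it. The log2 fold change was 0.66 (SE 0.22), with an adjusted p of 0.185 and of 0.0294 with the replicate block. Cry2 (ENSMUSG00000068742) had 5.42, 4.52 and 3.09 CPM in the controls against 8.12, 6.57 and 8.64 CPM in the knockouts. The groups were clear of each other, although control replicate 1 came near knockout replicate 2. The log2 fold change of Cry2 was 0.84 (SE 0.22), with an adjusted p of 0.122 and of 0.0352 with the block.

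Among the activators, Arntl was higher in knockout while its partner Clock was not. Arntl (ENSMUSG00000055116) had 10.6, 12.8 and 12.0 CPM in the controls against 16.8, 18.9 and 23.1 CPM in the knockouts. The controls were tight and the knockouts stood clear of them. The mean was 11.8 CPM ± 1.14 (SD, n = 3) in the controls and 19.6 CPM ± 3.18 in the knockouts, a log2 fold change of 0.74 (SE 0.15). Its adjusted p was 0.0671 without and 0.0123 with the replicate block.

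Clock (ENSMUSG00000029238) had 21.0, 23.3 and 33.3 CPM in the controls against 19.5, 27.3 and 23.9 CPM in the knockouts. The groups overlapped widely, with the highest value in control replicate 3 and the lowest in knockout replicate 1. The log2 fold change was -0.13 (SE 0.20, adjusted p 0.81), and it turned to 0.29 when library totals replaced the TMM factors. Npas2 (ENSMUSG00000026077), which can stand in for Clock, had 3.84, 2.67 and 1.85 CPM in the controls against 3.59, 3.94 and 5.61 CPM in the knockouts. Knockout replicate 1 lay below control replicate 1, so the groups overlapped, and the log2 fold change was 0.65 (SE 0.30, adjusted p 0.321).

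The repressor Nr1d1 and the output gene Dbp, both E-box targets, overlapped between the groups. Nr1d1 (ENSMUSG00000020889) had 8.60, 5.05 and 8.07 CPM in the controls against 8.66, 3.74 and 10.3 CPM in the knockouts. Replicate 2 was lowest in both groups, and the log2 fold change was 0.06 (SE 0.39, adjusted p 0.958). Its sign changed in 6 of the 17 alternative fits, with values from -0.23 to 0.46. Dbp (ENSMUSG00000059824) had 1.70, 1.27 and 1.13 CPM in the controls, from 31 to 54 counts, against 2.47, 1.63 and 1.77 CPM in the knockouts. Knockout replicate 2 lay just below control replicate 1, and the log2 fold change was 0.51 (SE 0.32, adjusted p 0.482). These genes overlap a neighbour on the opposite strand, Thra for Nr1d1 and Sphk2 for Dbp. Counting each strand orientation separately gave 49.5% more reads for Nr1d1 and 73.4% more for Dbp than the unstranded count, so a large part of the reads over them is left out of the values above. Thra had a control mean of 11.0 CPM ± 0.944 (SD, n = 3) against 9.70 CPM ± 0.264 in the knockouts. Sphk2 averaged 13.3 CPM ± 1.13 and 14.1 CPM ± 1.46.

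With the replicate number as a block, 5 members were called and all were higher, namely Per2, Per3, Arntl, Cry1 and Cry2, against 5.99% of all genes called, 3.4% called higher and 2.58% lower. This fit assumes that equal replicate numbers pair the libraries, which the labels do not state. With the presence of Xist counts as a covariate, the group difference sets the knockouts against control replicate 1 alone. Its values therefore rest on 1 control library and are given as sizes only. In that fit the log2 fold change was 1.71 (SE 0.40) for Per2, 1.17 (SE 0.38) for Per3, 1.11 (SE 0.26) for Cry1 and 0.89 (SE 0.22) for Arntl. It was smaller for Cry2, at 0.52 (SE 0.28), for Npas2, at 0.19 (SE 0.35), for Dbp, at 0.20 (SE 0.44), and for Per1, at 0.38 (SE 0.64). Clock turned to 0.17 (SE 0.26) and Nr1d1 to -0.18 (SE 0.57). Control replicate 1, the control with 3 Xist counts, lay below all 3 knockouts in Per1, Per2, Per3, Cry1, Cry2 and Arntl and inside the knockout range in the other 4 members.

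**Figure D3:**
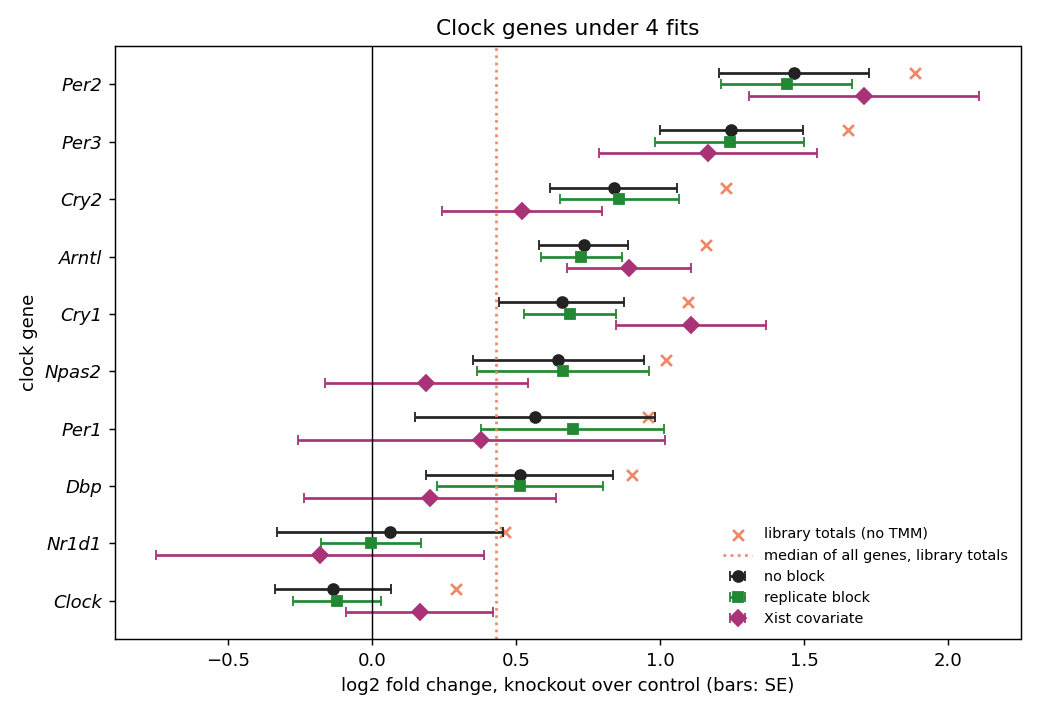
Log2 fold change of each clock gene, knockout over control, under 4 fits. Bars are standard errors, crosses are the fit scaled by library totals, and the dotted line is the median of all genes in that fit. Per2 and Per3 are highest in the fit without a block, at 1.46 and 1.25, and Clock and Nr1d1 lie around 0 there, at -0.13 and 0.06.

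Within the numbered pairs, knockout over control, Per2 differed by 1.54, 1.67 and 1.10 on the log2 scale in replicates 1 to 3 and Per3 by 1.25, 1.45 and 1.04. These pairs gave like differences. Arntl differed by 0.67, 0.56 and 0.95. Per1 ranged from 0.07 in pair 3 to 1.78 in pair 2, and Npas2 from -0.10 in pair 1 to 1.60 in pair 3. Clock and Nr1d1 took both signs, with -0.10, 0.23 and -0.48 for Clock and 0.01, -0.43 and 0.36 for Nr1d1.

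Ratios of counts between members of 1 library do not depend on scaling, and 12 were computed. Arntl per Clock count was 0.502, 0.550 and 0.359 in the controls against 0.861, 0.691 and 0.966 in the knockouts. The knockouts were thus all higher, with means of 0.470 ± 0.0996 (SD, n = 3) and 0.840 ± 0.139. Per2 per Arntl count was 0.140, 0.157 and 0.149 in control and 0.256, 0.340 and 0.165 in knockout. This ratio was higher in every knockout, although knockout replicate 3 stood only slightly above the controls. Its control values lay closer together than counting of Per2 alone gives (a coefficient of variation of 14.4%). The other 10 ratios overlapped between the groups. Cry1 per Arntl averaged 0.514 ± 0.106 in control and 0.499 ± 0.0878 in knockout, means closer to each other than either SD. Nr1d1 per Arntl averaged 0.628 ± 0.214 in control and 0.387 ± 0.167 in knockout. Its lowest values in both groups were those of replicate 2, at 0.394 and 0.198.

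**Figure D4:**
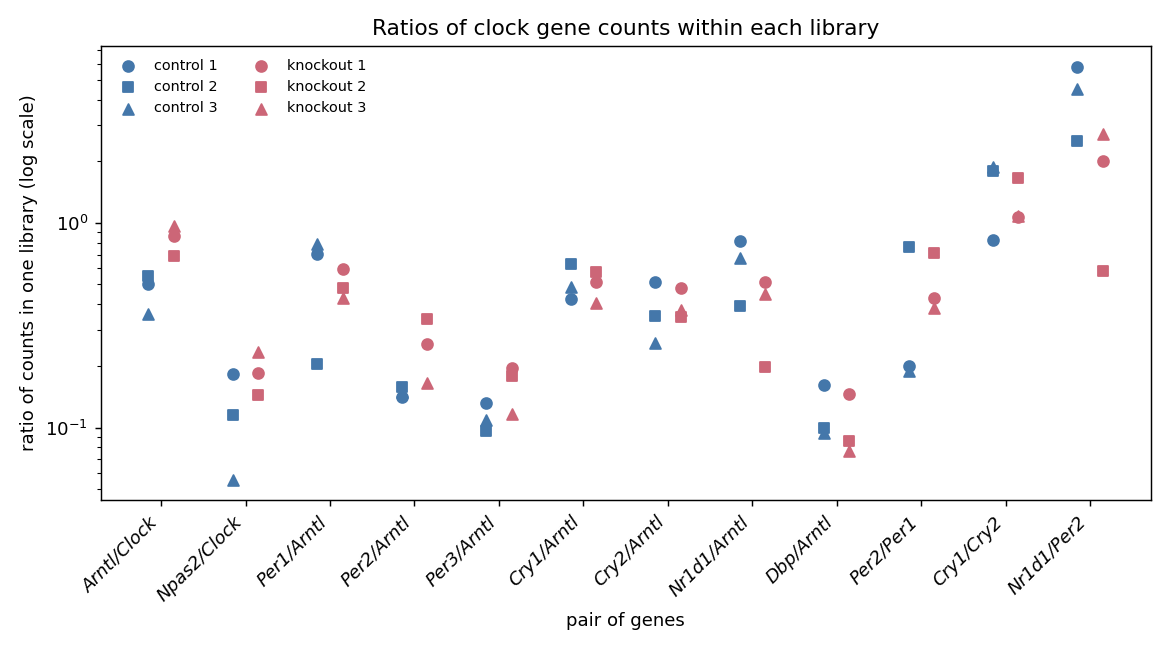
Ratio of the counts of a pair of clock genes in each library, on a log axis. Colours give the group and markers the replicate. Arntl/Clock and Per2/Arntl are the 2 ratios whose knockout points all lie above the control points.

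Levels can be compared between genes only per length, here as CPM per kilobase of exon. In control the order was Nr1d1 at 2.35 ± 0.622 (SD, n = 3), Clock at 1.89 ± 0.478, Cry1 at 1.83 ± 0.548, Arntl at 1.57 ± 0.152 and Per1 at 1.15 ± 0.619. After these came Cry2 at 0.687 ± 0.186, Npas2 at 0.582 ± 0.209, Dbp at 0.457 ± 0.0996, Per2 at 0.300 ± 0.0456 and Per3 at 0.136 ± 0.00799. Every gene overlapped the next one down except Dbp over Per2 and Per2 over Per3. In knockout Cry1 led at 2.89 ± 0.342, followed by Arntl at 2.60 ± 0.423, and Nr1d1 at 2.46 ± 1.11 spanned both. Per2 reached 0.828 ± 0.237 and lay above Dbp at 0.653 ± 0.150, with overlapping libraries, and Per3 stayed lowest at 0.324 ± 0.0393. Between these stood Clock at 1.72 ± 0.283, Per1 at 1.71 ± 0.0943, Cry2 at 1.23 ± 0.171 and Npas2 at 0.914 ± 0.225, and the neighbours without overlap were Per1 over Cry2 and Dbp over Per3. This order depended on the length used. Per kilobase of the longest transcript, Arntl led in control at 2.95, over Nr1d1 at 2.66, Clock at 2.66 and Cry1 at 2.02. By that length Arntl also led in knockout, at 4.90, over Cry1 at 3.19 and Nr1d1 at 2.78. Exon lengths came from the GRCm38 annotation and the counts from GRCm39. The levels of Nr1d1 and Dbp leave out the reads that overlap Thra and Sphk2.

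Of 13 other core loop genes 11 passed the filter, and in edgeR's quasi-likelihood test none was called, with 2 at an unadjusted p under 0.05 and a median log2 fold change of 0.20. Over all genes tested, 16.7% were at an unadjusted p under 0.05. Tef, a D-box activator of the same family as Dbp, had 14.9, 17.1 and 15.2 CPM in the controls against 20.3, 20.0 and 22.6 CPM in the knockouts. It was the 1 gene of this list whose groups did not overlap, with a log2 fold change of 0.41 (SE 0.12, adjusted p 0.156). Rora, an activator that binds ROR elements, and Bhlhe40, a repressor that competes for E-boxes, had log2 fold changes of -0.18 (SE 0.19) and -0.21 (SE 0.31), which were 0.23 and 0.20 with library totals. Nr1d2, the paralog of Nr1d1, averaged 9.93 CPM ± 4.18 and 11.6 CPM ± 0.972. Ciart, a repressor of the CLOCK and ARNTL pair with the 3 E-boxes mentioned above, had 0.504, 0.698 and 0.364 CPM in the controls against 1.05, 1.31 and 0.671 CPM in the knockouts. Nr1d2 and Ciart are named outside the rule for named genes, after their values were seen. Rorb and Hlf did not pass the filter, with at most 1 and 19 counts per library.

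Kinases and ubiquitin ligases that modify and degrade clock proteins made up a further list. All 16 of its genes were tested and none was called, with 2 at an unadjusted p under 0.05 in edgeR (16.7% of all genes) and a median log2 fold change of 0.04. Csnk1d, a kinase that marks Period proteins for degradation, had a control mean of 20.0 CPM ± 0.926 (SD, n = 3) against 24.1 CPM ± 0.996 in the knockouts, without overlap. Its log2 fold change was 0.27 (SE 0.12, adjusted p 0.296). Csnk2b, a casein kinase 2 subunit, had a log2 fold change of -0.36 (SE 0.14; 0.07 with library totals), and Fbxl21, an F-box protein of cryptochromes, one of -0.58 (SE 0.43). Usp2, a deubiquitinase that is itself rhythmic in many tissues, averaged 3.71 CPM ± 1.45 and 4.47 CPM ± 0.657. Of the 16 genes, 2 were higher and 2 lower without overlap, shares to be set beside the 12.0% and 10.9% of all genes.

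Clock outputs and genes rhythmic in many tissues numbered 12, of which 11 were tested and none was called, with 1 at an unadjusted p under 0.05 (16.7% of all genes). Lonrf3, a RING finger gene, had 1.13, 1.44 and 1.85 CPM in the controls against 2.39, 3.05 and 4.29 CPM in the knockouts, so that all knockouts lay higher. Its log2 fold change was 1.14 (SE 0.31), and edgeR's adjusted p was 0.132 and 0.0227 with the replicate block. Wee1, a cell cycle kinase and E-box target, lay lower in every knockout, at 4.99 CPM ± 0.474 against 6.54 CPM ± 1.19 (SD, n = 3; log2 fold change -0.39, and 0.04 with library totals). Cdkn1a, the cell cycle inhibitor p21, varied from 3.46 to 15.6 CPM in control and from 7.74 to 18.7 CPM in knockout. Its adjusted p was 0.792, and 0.0460 with the block. Pfkfb3, a glycolytic regulator, had a log2 fold change of -0.45 (SE 0.52).

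Genes that respond to glucocorticoids or to acute stimulation were listed because Per1 and Per2 respond to both. Of the 10 glucocorticoid-responsive genes none was called, 1 was at an unadjusted p under 0.05 (16.7% of all genes), and the median log2 fold change was -0.08. Fkbp5, a glucocorticoid receptor chaperone and target, had a control mean of 3.27 CPM ± 0.950 (SD, n = 3) against 1.93 CPM ± 0.588 in the knockouts. Errfi1, a feedback inhibitor of the EGF receptor, had 12.1, 6.98 and 22.1 CPM in the controls against 23.6, 12.1 and 63.1 CPM in the knockouts, with adjusted p of 0.497 and, with the block, 0.00279. Its log2 fold change of 1.26 was 0.37 without knockout replicate 3. Cebpd had a log2 fold change of 0.41 (SE 0.23), and Mt1, a metallothionein, one of -0.24 (SE 0.32).

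Of the 12 immediate-early and cAMP-responsive genes none was called in edgeR and none reached an unadjusted p under 0.05, but they differed strongly between replicates. Their summed level was 737, 122 and 613 CPM in the controls against 639, 176 and 959 CPM in the knockouts. Replicate 2 was lowest in both groups, as it was for Nr1d1 and Per1 in both groups. Per2 went the other way, with its highest value of each group in replicate 2. The named genes were Fosb and Egr1, with log2 fold changes of 0.77 (SE 1.72) and 0.77 (SE 1.31), and Crem and Sik1, with -0.47 (SE 0.28) and -0.02 (SE 0.46). The part of this replicate difference in the clock gene values was not tested.

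Over the 5 lists together, 60 genes were listed and 57 tested. No gene was called by edgeR's quasi-likelihood test or by DESeq2, and 6 were at an unadjusted p under 0.05 in edgeR (16.7% of all genes). With the replicate block 4 were called, all higher, where 3.4% of all genes were called higher and 2.58% lower. Without overlap, 4 were higher and 4 lower, shares to be set beside the 12.0% and 10.9% of all genes. The median log2 fold change was 0.08, against 0.65 for the 10 members and 0.02 for all genes. The members had been listed with their values known and these lists were not trimmed, so the medians are not on an equal footing.

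**Figure D5:**
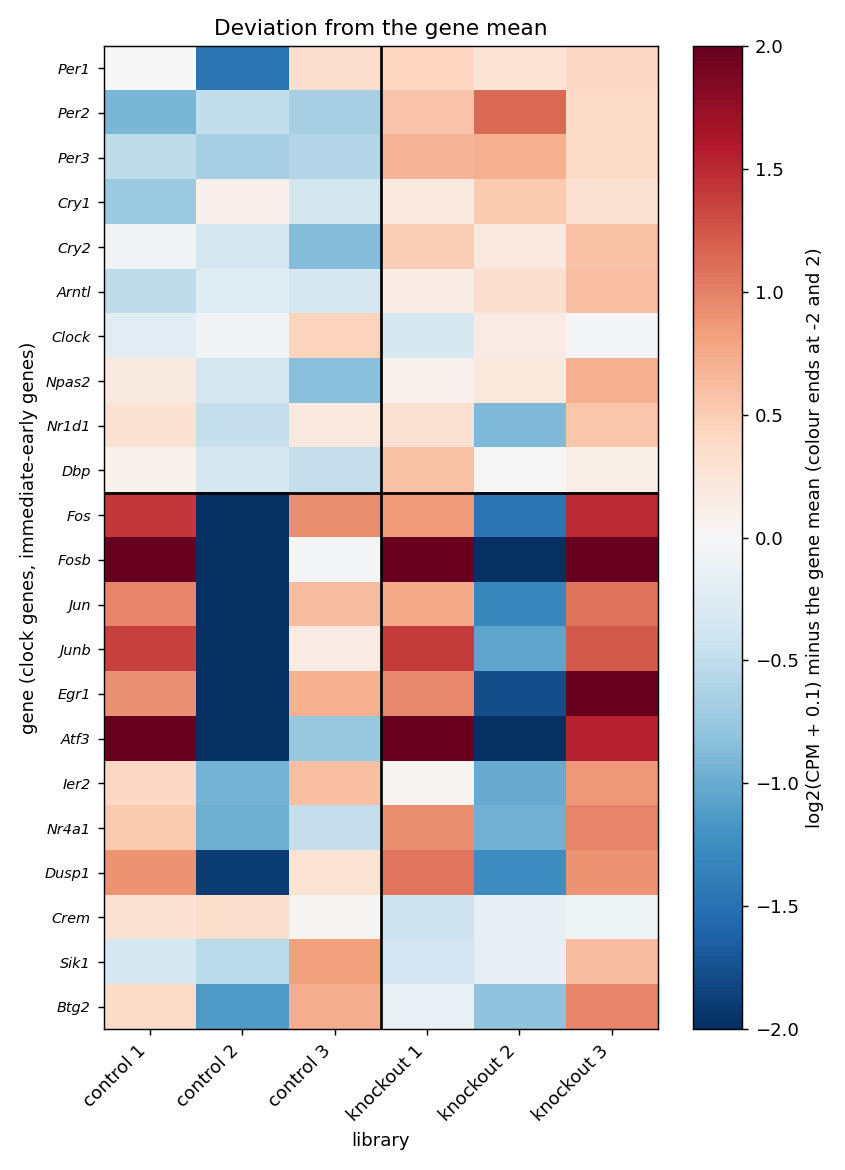
Log2(CPM + 0.1) minus the gene's mean over the 6 libraries, for the 10 clock genes (top) and the immediate-early and cAMP-responsive genes (bottom). Red is above and blue below the mean, and colours end at -2 and 2. Per2, Per3 and Arntl part the groups, while Fos and most immediate-early genes are low in replicate 2 of both groups.

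The genes most like Per2, the member with the largest fold change, were sought among 12111 other tested protein-coding genes by Pearson correlation of log2 CPM over the 6 libraries. The 5 closest were Naa38, Ddhd2, Whrn, Ankrd24 and Dnajc16, each with a correlation of 0.99, and 265 genes exceeded 0.9. The group difference is part of this likeness, which is given as a description. Ankrd24 had the largest difference of these, from 14.4 CPM ± 1.36 (SD, n = 3) in control to 54.5 CPM ± 16.4 in knockout (log2 fold change 1.92, SE 0.22, adjusted p 0.00894 in edgeR). Naa38, a subunit of an N-terminal acetyltransferase complex, had 0.524 CPM ± 0.117 and 1.86 CPM ± 0.552 in the unstranded counts. Its log2 fold change of 1.82 there was 0.26 with forward-strand and 0.36 with reverse-strand counts. Ddhd2, a lipase gene, had 12.2 CPM ± 0.488 and 18.6 CPM ± 2.20, Whrn 9.15 CPM ± 0.423 and 15.3 CPM ± 2.46, and Dnajc16 4.92 CPM ± 0.294 and 6.71 CPM ± 0.434. Among the other members, the correlation with Per2 was 0.89 for Cry1, 0.86 for Arntl, 0.70 for Cry2, 0.53 for Dbp, 0.52 for Npas2, 0.41 for Per1, -0.07 for Clock and -0.35 for Nr1d1.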

How the data were processed

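RNA sequencing libraries from 3 control and 3 Trip12 knockout acinar preparations were analysed, whose deposited files hold unnormalised gene counts in 1 unstranded column and 1 column per strand. The alignment used STAR 2.7.10a and build GRCm39 (mm39), per the submitters' processing notes, and the annotation is not given in the sources used here. The 4 leading rows, of reads given to no gene (per library 9.70% to 13.0% of all reads unmapped and 21.6% to 28.4% mapped to several places) stayed out of library sizes. Symbols and exon lengths came from GENCODE vM21 (GRCm38), in which 94.1% of identifiers were found, and promoters from RefSeq.

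Genes passing filterByExpr were fitted with edgeR 4.0.16 in R 4.3.3 (TMM, robust quasi-likelihood F test, Benjamini-Hochberg adjustment), after a test on simulated data. CPM used TMM library sizes, log2 CPM a prior count of 2, and the SE of a fold change is its size divided by the root of F. Alternatives included DESeq2 1.42.0. The replicate block takes equal replicate numbers as pairs, which the labels do not state. In these same libraries, deviations from the group means correlated at 0.63, 0.455 and 0.285 in pairs 1 to 3. Unequal numbers gave -0.496 to 0.210, the highest for control replicate 3 with knockout replicate 2. All libraries differed by more than sampling noise (lowest chi-square per degree of freedom 29.0). The clock genes and the lists were chosen with earlier results of these data known. The naming rule took all 10 members and Trip12, called list genes, the 2 largest and 2 smallest fold changes per list at a mean of at least 1 CPM, and the 5 genes most like the member with the largest fold change, and 1 gene it took is not reported here. The duct, islet, and stroma and endothelium marker lists summed to 96.9 to 112, 329 to 419 and 12.8 to 66.2 CPM in control and to 112 to 202, 225 to 851 and 17.8 to 72.3 CPM in knockout.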

Additional observations from a re-analysis of the deposited data

Results flagged for a closer look

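Some signals lay in reads that the unstranded gene counts leave out. Reads that the strand columns assign to Arntl but the unstranded count leaves out came to 1.86 CPM ± 0.515 (SD, n = 3) in knockout and 1.22 CPM ± 0.0216 in control, with no overlap (lowest knockout 1.28, highest control 1.24). The same reads for Dbp came to 1.42 CPM ± 0.163 in knockout and 1.05 CPM ± 0.169 in control, the knockouts starting at 1.31 and the controls ending at 1.24. These reads also overlap another gene on the opposite strand, an antisense gene for Arntl and Sphk2 for Dbp, and the libraries do not keep strand, so their gene of origin cannot be told apart. Such reads overlapped between the groups for Nr1d1, at 3.45 to 4.18 CPM in control and 2.85 to 4.16 CPM in knockout. They overlapped for Cry2 too, at 0.33 to 0.66 CPM in control and 0.64 to 0.83 CPM in knockout. The share of all genes that part in this way was not computed. Reads outside genes, given above per group, made up 3.03% ± 0.309 of uniquely mapped reads in knockout and 1.80% ± 0.333 in control, without overlap.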

How the results depend on the processing

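Per1, Per2, Per3, Cry1, Cry2, Arntl, Npas2 and Dbp kept a log2 fold change above 0 in all 17 alternative fits, Clock kept its sign in 14 and Nr1d1 in 11. The number of clock genes called (1) became 5 with library totals, 5 without a filter, 3 under a stricter count minimum (10 in every library), 5 with the replicate block and 3 with DESeq2. The fit with the Xist covariate rests on 1 control library, so its calls are not counted here. With forward-strand counts the 1 call was Per2, and with reverse-strand counts it was Arntl (adjusted p 0.0365 in edgeR) and no longer Per2 (0.0795). Leaving out 1 library gave 0 to 2, with the 2 without control replicate 1 and 0 without any of the other 5 libraries. The number called among the other clock-linked genes (0) became 6 with library totals, 2 without a filter and 4 with the replicate block, and stayed at 0 when each library was left out. Over all genes, 124 became 1519 with library totals (1442 higher and 77 lower, against 61 and 63), a scaling that moved the median of all genes to 0.43, 850 without a filter, 210 under the stricter minimum, 785 with the replicate block, 21 with the Xist covariate and 593 with DESeq2. Dropping 1 library gave from 20 (control replicate 2) to 461 (control replicate 1) calls. Both other counts, of motifs and of members at 1 CPM per kilobase or more, stayed within 1.5 times. The order of levels per length changed with the longest transcript's length, as given above. Depth limits Per2, Per3 and Dbp most, at 30 to 54 counts per control library.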
